A study of Homo sapiens with 3 samples.

Results

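Ribosome biogenesis and RNA polymerase I genes were followed in OVCAR3, an established HGSOC line (HGSOC is high-grade serous carcinoma of the ovary). The set held 40 genes of the 36601 in the count files, chosen by name: 38 genes for making ribosomes in the nucleolus, with SIRT7, the nucleolar deacylase, and MYC, the transcription factor, set beside them. All 40 symbols were found, and all 40 reached at least 10 CPM (UMIs in every 1000000 UMIs of a library, a UMI being 1 counted molecule of RNA) in DMSO or a treated library. Single cells were profiled by 3′ sequencing after 48 h in DMSO, the vehicle that every culture received, in 50 µM of the RAC inhibitor NSC23766 (RAC1i), or in 50 µM RAC1i with 5 µM of the EZH2 inhibitor GSK126 (Combo). RAC1 is a small GTPase of the cytoskeleton, and EZH2 places the repressive methyl mark on histone H3 lysine 27. Each condition was 1 library, so the spread between cultures was not measured. Where 3 values are given without names, they are for DMSO, RAC1i and Combo in that order. No test between conditions was possible, and the intervals given are 95% intervals that cover counting error only. With 1 library per condition, treatment and library cannot be told apart.

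Ribosomes are assembled in the nucleolus, where RNA polymerase I transcribes the ribosomal DNA into a long precursor RNA. Small nucleolar ribonucleoproteins (snoRNPs) modify this precursor, and large sets of processing factors cut and fold it into the small and the large ribosomal subunit. Growing cells spend much of their transcription on this pathway. MYC is known to drive many of its genes by binding the DNA letters CACGTG (the E-box), and SIRT7 is known to act on RNA polymerase I and on several nucleolar proteins.

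The kept cells numbered 7531 in DMSO, 10215 in RAC1i and 8239 in Combo, with median depths of 26750, 20989 and 24953 UMIs per cell. The median mitochondrial share, 5.60% in DMSO, was lower in RAC1i (1.66%) and Combo (1.58%). Between 15 and 23 barcodes of kept cells were shared by any pair of libraries. Of 7 markers of ovarian cancer epithelium, all were detected in each library, and 4 were lower past 1.5-fold in both treated libraries, PAX8 among them at 355, 54.3 and 47.8 CPM in DMSO, RAC1i and Combo. The 11 markers of leukocytes, fibroblasts, endothelium and red blood cells stood at most at 5.69 CPM, that of COL1A1 in RAC1i, and PTPRC of leukocytes had 2, 5 and 0 UMIs in DMSO, RAC1i and Combo. EZH2 stood at 32.1 CPM in the DMSO library, 12.4 CPM in that of RAC1i and 15.2 CPM in that of Combo. RAC1, the other target, was higher but not past 1.5-fold, with log2 ratios to DMSO of 0.35 in RAC1i and 0.32 in Combo. S phase and G2M genes were lower in the treated libraries, with a median log2 ratio of RAC1i over DMSO of -0.83 over 40 measured S phase genes and -0.60 over 53 measured G2M genes. Their part in the results below was not tested. Values within cells divided by their share of these genes are given as a description.

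The E-box was looked for in the 250 bases upstream of the start sites in RefSeq (GRCh38.p14), where 32 of the 40 member genes had an entry. It was present in 5 of the 32 (15.6%), against 839 of 7074 genes with an entry that reached 10 CPM in any library (11.9%). Counted by window, since a gene can have several starts, it was in 5 of 40 member windows (12.5%) and in 2228 of all 35116 windows (6.34%). The motif CACGTG is its own reverse complement, so both strands were searched at once. The 5 stretches of 80 bases that hold it are shown because the E-box is the sequence MYC is known to bind, and they are printed 5′ to 3′ on the strand of the gene with the E-box in capitals.
DDX21, + strand, chr10:68956567-68956646: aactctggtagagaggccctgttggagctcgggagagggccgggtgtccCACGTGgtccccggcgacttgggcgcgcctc
LYAR, - strand, chr4:4290043-4290122: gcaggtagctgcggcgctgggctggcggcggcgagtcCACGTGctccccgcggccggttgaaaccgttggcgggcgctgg
NAT10, + strand, chr11:34105549-34105628: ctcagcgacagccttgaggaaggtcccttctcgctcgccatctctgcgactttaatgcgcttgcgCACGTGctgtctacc
UTP20, + strand, chr12:101280025-101280104: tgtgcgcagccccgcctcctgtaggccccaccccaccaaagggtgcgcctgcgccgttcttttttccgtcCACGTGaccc
UTP4, + strand, chr16:69132569-69132648: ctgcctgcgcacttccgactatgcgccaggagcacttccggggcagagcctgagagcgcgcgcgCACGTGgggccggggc
The E-box of DDX21 began 31 bases before the annotated start, that of LYAR 64 bases, NAT10 15 bases, UTP20 10 bases and UTP4 16 bases. DDX21 and LYAR have 2 annotated starts each, and the E-box lay upstream of 1 of them. The GC-box GGGCGG, searched on both strands, was in 23 of the 32 member promoters (71.9%) and in 5421 of the 7074 measured genes (76.6%). A match of letters is a description of the window and not evidence of binding. Of the 5 members with an E-box, DDX21, LYAR and UTP4 were higher past 1.5-fold in both treated libraries, and NAT10 and UTP20 were not. This is 3 of 5, beside 19 (RAC1i) and 16 (Combo) of all 40 members and 22.7% and 21.3% of all measured genes, and 5 genes are too few to read a difference from.

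The members as a whole were higher in both treated libraries than in DMSO, but they did not move as a block. Their summed level was 4381 CPM in DMSO against 7201 CPM under RAC1i and 6992 CPM under Combo, which is 1.64-fold of DMSO for RAC1i (1.64 to 1.65) and 1.60-fold for Combo (1.59 to 1.60). Abundant genes weigh most in this sum, among them NPM1 at 1102, 1995 and 2039.7 CPM and DDX21 at 263, 718 and 629 CPM. Without SIRT7 and MYC the summed ratios were 1.62 and 1.56. The median log2 ratio of RAC1i over DMSO was 0.50 over the 40 members, with quartiles at -0.06 and 1.28, against -0.20 over all 8778 measured genes. Among the 40 members, 19 were higher past 1.5-fold and 6 were lower, and the background was 22.7% of all measured genes higher and 36.9% lower. In Combo over DMSO the median was 0.48 against -0.18 over 8745 genes, with 16 members higher and 6 lower, against 21.3% and 35.4% of all measured genes. POLR1A, among the lower in both comparisons, and MYC, among the lower in Combo, reached 10 CPM in DMSO alone. They counted as measured only through the library where they were high, so no support is drawn from them. A higher share of the members than of all genes was thus higher in each treated library, and a smaller share was lower. Both comparisons use the same DMSO library, so they are not independent of each other. Combo and RAC1i differed in few genes: of 7443 genes measured in Combo over RAC1i, 0.175% were higher and 0.484% lower, and of the 38 members measured there 0 were past 1.5-fold in either direction, with a median log2 ratio of -0.05.

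**Figure D1:**
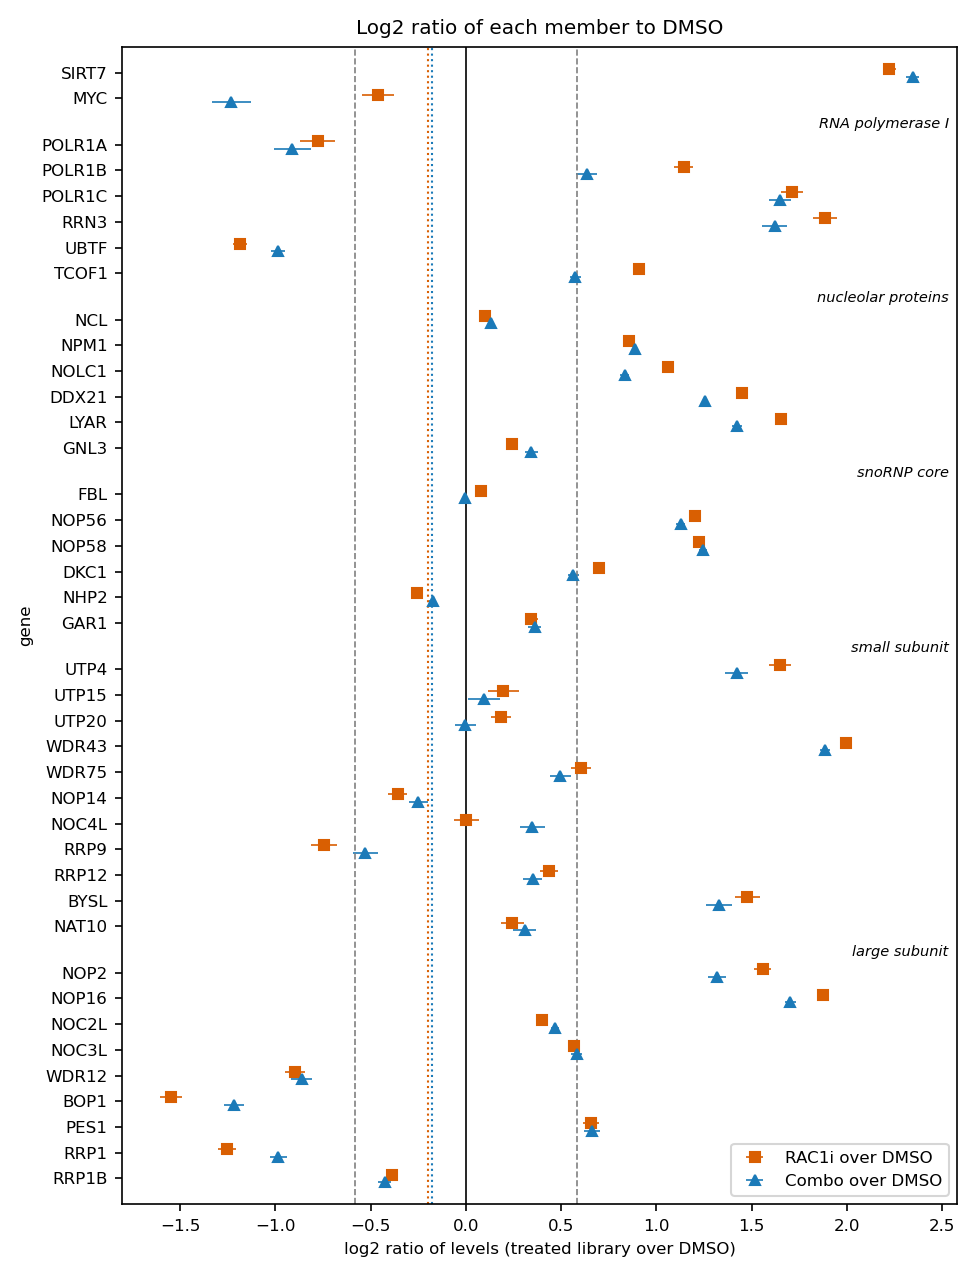
Log2 ratio of each of the 40 members in RAC1i (squares) and Combo (triangles) over DMSO, in order of role, with bars for the 95% counting interval, dashed lines at 1.5-fold and dotted lines at the median of all measured genes in each comparison. SIRT7 was highest at 2.22 and 2.34, BOP1 was lowest in RAC1i at -1.55 and MYC lowest in Combo at -1.23. MYC and POLR1A reached 10 CPM in DMSO alone.

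SIRT7, named beside the processing genes, was far higher in both treated libraries, and MYC was lower in Combo over the summed cells, while its difference between RAC1i and DMSO turned with the weight given to shallow cells. SIRT7 (chr17:81911939-81921323, minus strand, GRCh38) removes acyl groups from lysines of nucleolar and chromatin proteins. Its level was 43.4 CPM (42.5 to 44.3) in the DMSO library, 202 CPM in that of RAC1i and 221 CPM in that of Combo. The ratios to DMSO were 4.66-fold for RAC1i (4.56 to 4.77) and 5.08-fold for Combo (4.97 to 5.20), and 97.2% and 98.1% of all measured genes had a lower log2 ratio. The interval of Combo over RAC1i, 1.08 to 1.10, lay above 1, as did that of 3200 of the 7443 genes measured there. Of those genes, 72.4% had a lower log2 ratio than SIRT7. With each cell thinned to 5000 UMIs, which left out 806 DMSO, 1015 RAC1i and 885 Combo cells below that depth, a UMI of SIRT7 was held by 18.6% of cells in DMSO (17.7 to 19.6, Clopper-Pearson) but by 57.7% in RAC1i and 60.7% in Combo. Without thinning the shares were 57.4%, 84.9% and 87.2%. All cells were of 1 line, so no cell type that lacks SIRT7 gave a background share.

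MYC (chr8:127735434-127742951, plus strand, GRCh38) had low counts in all libraries, 2548, 2186 and 1160 UMIs in DMSO, RAC1i and Combo. The levels were 12.8 CPM in DMSO (12.3 to 13.3) against 9.30 CPM under RAC1i and 5.45 CPM under Combo (5.14 to 5.77). Only DMSO reached 10 CPM, so MYC counted as measured through that library alone. Combo was the lowest, at 0.426 of DMSO (0.397 to 0.457) and 0.586 of RAC1i (0.545 to 0.629). The ratio of RAC1i to DMSO was 0.727 (0.686 to 0.770), a log2 ratio of -0.46 that was not past 1.5-fold. Of all measured genes, 41.1% had a lower log2 ratio. This difference of RAC1i depended on which cells carried the weight: the log2 ratio for MYC was 0.36 with each cell given equal weight, 0.31 with cells thinned to 2500 UMIs and 0.01 with depth tertiles weighted equally. In Combo over DMSO all 12 alternatives kept MYC below DMSO, with log2 ratios from -1.32 to -0.32. The share of thinned cells with a UMI of MYC was 5.58% in DMSO (5.04 to 6.15), 4.92% in RAC1i (4.49 to 5.39) and 3.05% in Combo, and 23.9%, 15.9% and 11.0% without thinning. Thinned to 2500 UMIs the share in RAC1i was above that in DMSO, so no order of these 2 libraries is read from it.

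The dependence of MYC on depth was seen directly when cells were divided at 15831 and 31421 UMIs, the tertiles over the pooled libraries. In the cells of lowest depth MYC stood at 9.38 CPM (7.92 to 11.0) in the DMSO library, 20.7 CPM (19.1 to 22.3) in that of RAC1i and 15.0 CPM in that of Combo (13.4 to 16.8). In the deepest cells it stood at 12.8 CPM in DMSO against 6.21 CPM under RAC1i and 3.69 CPM under Combo. MYC was therefore higher in the treated libraries among shallow cells, with log2 ratios of 1.14 and 0.68 for RAC1i and Combo, and lower among deep cells, with log2 ratios of -1.04 and -1.79. In treated libraries the MYC level went down from the shallow to the deep tertile, and in DMSO it did not. The shallow DMSO cells also differed in their median mitochondrial share, 1.02% against 7.09% in the middle and 5.70% in the deep tertile, whereas in RAC1i the values were 2.69%, 1.44% and 1.23%. The part of these shares in the MYC levels was not tested. SIRT7 was higher in the treated libraries in every tertile, from 34.0 CPM in DMSO against 171 CPM in RAC1i among shallow cells to 44.1 CPM against 220.0 CPM among deep cells.

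**Figure D2:**
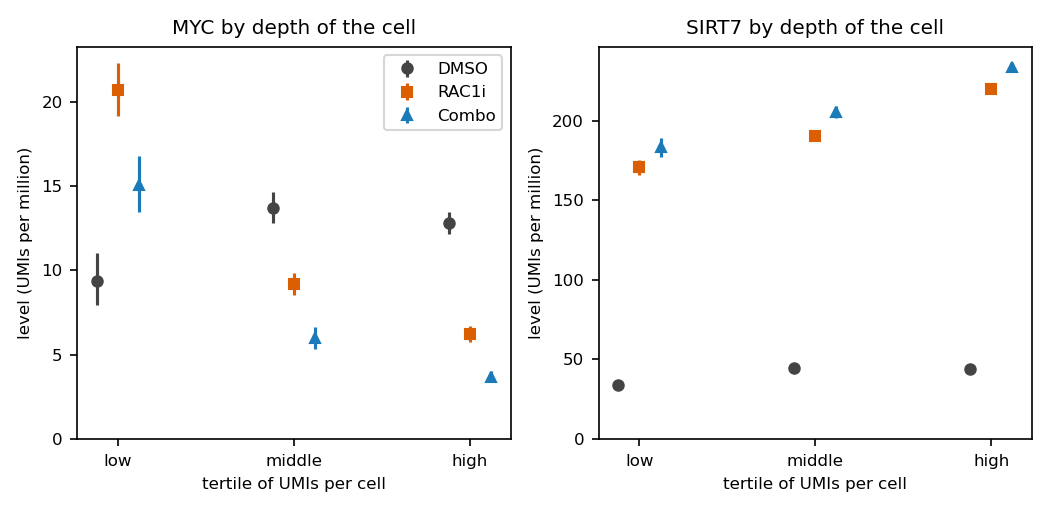
Level of MYC (left) and SIRT7 (right) (CPM) in cells of low, middle and high depth for DMSO (circles), RAC1i (squares) and Combo (triangles), with 95% counting intervals. MYC was lowest in DMSO among shallow cells and highest in DMSO among deep cells, and SIRT7 was lowest in DMSO in each of the 3 tertiles.

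RNA polymerase I and its direct factors held both higher and lower genes. Of these 6 members, 4 were higher past 1.5-fold in RAC1i and 2 were lower, and in Combo 3 were higher and 2 lower, with median log2 ratios of 1.03 and 0.60. The 2 lower are 33.3% of the group, near the 36.9% and 35.4% of all measured genes that were lower, and 22.7% and 21.3% of all measured genes were higher. These shares stand beside the count of each smaller group as well, and groups of this size are too few to read a difference from. POLR1B, the second largest subunit, stood at 22.4 CPM in the DMSO library, 49.5 CPM in that of RAC1i and 34.8 CPM in that of Combo. POLR1C, a subunit shared with RNA polymerase III, stood at 15.8, 51.7 and 49.5 CPM. RRN3, the initiation factor that brings the polymerase to the promoter, stood at 12.6, 46.5 and 38.7 CPM. All 3 were lowest in DMSO, and the ratios of RAC1i to DMSO were 2.21 (2.13 to 2.29), 3.28 (3.15 to 3.41) and 3.69 (3.53 to 3.86). POLR1A, the largest and catalytic subunit, was opposite to these, at 11.7 CPM in DMSO against 6.81 CPM under RAC1i and 6.21 CPM under Combo, or 0.583 and 0.532 of DMSO. It reached 10 CPM in DMSO alone, so 1 of the 2 lower members of this group counted as measured only through that library. UBTF, the factor that binds along ribosomal DNA and keeps it open, was also lower, at 88.2 CPM in the DMSO library, 38.8 CPM in that of RAC1i and 44.5 CPM in that of Combo, or 0.439 (0.428 to 0.451) and 0.504 (0.492 to 0.517) of DMSO. TCOF1, the treacle protein that links the polymerase to UBTF, stood at 78.5, 147 and 117 CPM, 1.88-fold of DMSO in RAC1i and 1.49-fold in Combo, just under the limit. The log2 ratio of RAC1i over DMSO for POLR1A was -0.01 among shallow cells (-0.35 to 0.34), and it was lower among middle and deep cells at -0.81 in each. In Combo over DMSO the log2 ratio for POLR1A was 0.18 among shallow cells (-0.19 to 0.55). UBTF was lower in RAC1i in every depth tertile, from -1.21 to -0.91. RRN3 has near-identical pseudogene copies, and how many of its reads could not be placed is not known.

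Within this group Combo was mostly below RAC1i. The ratio of Combo to RAC1i was 0.702 for POLR1B (0.682 to 0.723), 0.793 for TCOF1 (0.780 to 0.806) and 0.833 for RRN3 (0.809 to 0.857). Of all measured genes, 0.9% had a lower ratio of Combo to RAC1i than POLR1B. UBTF went the other way, at 1.15 (1.11 to 1.18).

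Of the 6 nucleolar proteins and chaperones, 4 were higher past 1.5-fold and 0 lower in each treated library, with median log2 ratios of 0.96 and 0.86. LYAR, a nucleolar regulator of growth, stood at 78.6 CPM in DMSO against 247 CPM under RAC1i and 211 CPM under Combo. DDX21, an RNA helicase that acts on ribosomal RNA, stood at 263, 718 and 629 CPM. NOLC1, a chaperone of snoRNPs, stood at 111, 232 and 198 CPM. All 3 were highest in RAC1i, with ratios of RAC1i to DMSO of 3.14, 2.73 and 2.08, and Combo lay between RAC1i and DMSO. NPM1, or nucleophosmin, the abundant nucleolar histone chaperone, stood at 1102 CPM in the DMSO library, 1995 CPM in that of RAC1i and 2039.7 CPM in that of Combo, 1.81-fold and 1.85-fold of DMSO. Pseudogene copies of NPM1 could take part of its reads, and that part is not known. NCL, or nucleolin, was nearly level, at 598, 641 and 656 CPM, and GNL3, or nucleostemin, at 63.0, 74.4 and 79.9 CPM. The largest ratio among these last 2 genes was 1.27, for GNL3 in Combo.

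**Figure D3:**
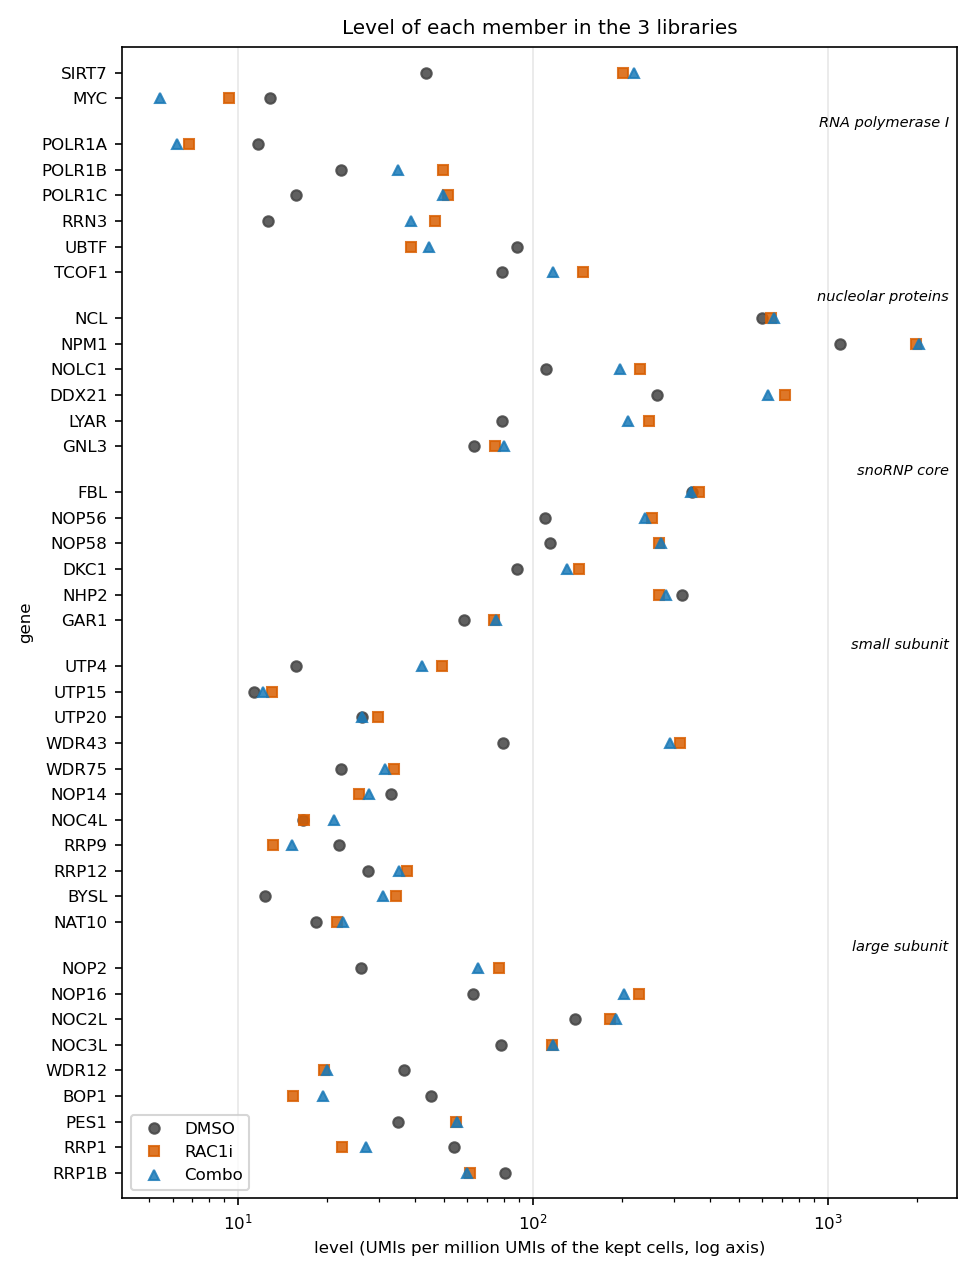
Level of each of the 40 members in DMSO (circles), RAC1i (squares) and Combo (triangles), in CPM on a log axis, in order of role. The treated libraries lay close to each other for most members and apart from DMSO on either side, with WDR43 at 79.1, 316 and 292 and BOP1 at 45.1, 15.4 and 19.4.

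The core proteins of snoRNPs split by protein within each of the 2 classes. Box C/D particles methylate ribosomal RNA, and box H/ACA particles change uridine to pseudouridine. Among box C/D proteins, NOP56 stood at 110.4 CPM in DMSO against 254 CPM under RAC1i and 241 CPM under Combo, and NOP58 at 115, 267 and 272 CPM. The ratios of RAC1i to DMSO were 2.30 (2.26 to 2.34) for NOP56 and 2.33 (2.30 to 2.37) for NOP58. FBL, or fibrillarin, the methyltransferase of the same particle, was nearly level at 347, 366 and 345 CPM, with a ratio of 1.06 in RAC1i (1.05 to 1.07) and 0.995 in Combo (0.984 to 1.01). Among box H/ACA proteins, DKC1, or dyskerin, the pseudouridine synthase, stood at 88.5, 144 and 131 CPM, 1.62-fold of DMSO in RAC1i and 1.48-fold in Combo. GAR1 stood at 58.3, 73.9 and 74.9 CPM, and NHP2 at 320, 268 and 283 CPM. NHP2 was the only member of this group below DMSO in both treated libraries by its interval, at 0.837 and 0.885 of DMSO. It lay near the middle of all measured genes, 48.0% and 50.2% of which had a lower log2 ratio. Its log2 ratio of RAC1i over DMSO was -0.79 among shallow cells, where DMSO stood at 428 CPM, and -0.19 among deep cells.

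Small subunit processing genes held both WDR43, the member with the highest ratio after SIRT7, and several genes that barely differed. Of 11 members, 4 were higher past 1.5-fold and 1 was lower in RAC1i, and 3 were higher and 0 lower in Combo, with median log2 ratios of 0.24 and 0.35. WDR43, a part of the UTP-A complex that binds the precursor RNA early, stood at 79.1 CPM in the DMSO library, 316 CPM in that of RAC1i and 292 CPM in that of Combo, 3.99-fold (3.92 to 4.06) and 3.69-fold (3.63 to 3.76) of DMSO. UTP4, of the same complex, stood at 15.7, 49.4 and 42.1 CPM, 3.14-fold and 2.68-fold of DMSO. The other 2 members of this complex were nearer to DMSO: WDR75 stood at 22.3, 33.8 and 31.4 CPM and UTP15 at 11.4, 13.0 and 12.1 CPM. In RAC1i the ratio was 1.52 for WDR75 (1.46 to 1.58), so its interval spanned the limit of 1.5. BYSL, or bystin, needed for late steps of the small subunit, stood at 12.4, 34.4 and 31.0 CPM, 2.78-fold and 2.51-fold of DMSO.

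RRP9, the protein that marks the U3 snoRNP, was the member of this group that was lower past 1.5-fold, at 22.1 CPM in DMSO against 13.2 CPM under RAC1i and 15.3 CPM under Combo. Its ratio was 0.596 in RAC1i (0.569 to 0.625) and 0.693 in Combo (0.662 to 0.725). The log2 ratio of RAC1i over DMSO for RRP9 was -1.5 among shallow cells and -0.55 among deep cells. NOP14 and NOC4L act together in the small subunit, and NOP14 stood at 33.1, 25.8 and 27.9 CPM while NOC4L stood at 16.7, 16.7 and 21.2 CPM. Over the summed cells NOC4L was thus level between DMSO and RAC1i, at a ratio of 1.00 (0.956 to 1.05), and 1.27-fold of both in Combo. Among shallow cells its log2 ratio to DMSO was -0.68 in RAC1i (-0.89 to -0.47), lower past 1.5-fold, and -0.21 in Combo. RRP12, an export factor, stood at 27.7, 37.5 and 35.3 CPM, and UTP20, a large scaffold, at 26.3, 29.9 and 26.2 CPM. NAT10, the enzyme that acetylates cytidines of small subunit RNA, stood at 18.4, 21.8 and 22.7 CPM. None of these last 3 genes passed 1.5-fold over the summed cells. RRP12 passed it under some alternatives, with log2 ratios of 0.74 in RAC1i over DMSO thinned to 2500 UMIs and 0.74 in Combo over DMSO as a mean over cells. Among shallow cells the log2 ratios of RRP12 were 1.34 and 1.5. UTP20 passed the limit among shallow cells in RAC1i over DMSO, at a log2 ratio of 0.60 (0.41 to 0.80). Of all genes measured among shallow cells, 30.4% were higher past 1.5-fold and 33.7% lower in RAC1i over DMSO. In Combo over DMSO 29.8% were higher.

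Of the 9 large subunit processing genes 3 were higher past 1.5-fold and 3 lower in each treated library, or 33.3% each way, beside 22.7% higher and 36.9% lower over all measured genes in RAC1i and 21.3% and 35.4% in Combo. NOP16 stood at 62.5 CPM in the DMSO library, 229 CPM in that of RAC1i and 203 CPM in that of Combo, 3.66-fold (3.59 to 3.74) and 3.25-fold (3.19 to 3.32) of DMSO. NOP2, an RNA methyltransferase, stood at 26.1, 76.7 and 65.0 CPM, 2.94-fold and 2.49-fold of DMSO. The PeBoW complex, made of PES1, BOP1 and WDR12, was split among its parts. PES1 was higher, at 34.9 CPM in DMSO against 55.1 CPM under RAC1i and 55.3 CPM under Combo, 1.58-fold of DMSO in each. BOP1 stood at 45.1, 15.4 and 19.4 CPM and WDR12 at 36.5, 19.6 and 20.1 CPM. BOP1 was at 0.342 of DMSO in RAC1i (0.329 to 0.355) and at 0.430 in Combo (0.414 to 0.446), and WDR12 at 0.537 and 0.55. BOP1 was lower in RAC1i in each depth tertile, from -1.71 to -1.48 on the log2 scale, and in each proliferation tertile, from -1.66 to -1.40.

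The paralogs RRP1 and RRP1B, neighbours on chromosome 21, were both below DMSO. RRP1 stood at 53.9 CPM in the DMSO library, 22.6 CPM in that of RAC1i and 27.2 CPM in that of Combo, 0.419 and 0.505 of DMSO. RRP1B stood at 80.3, 61.3 and 59.7 CPM, 0.764 and 0.744 of DMSO, and did not pass 1.5-fold. Of all measured genes, 43.5% and 40.6% had a lower log2 ratio than RRP1B. Reads that fit both genes could have been lost from either. NOC2L and NOC3L, which bind each other in the pre-large subunit, were moderately higher, at 139, 183 and 191 CPM for NOC2L and 78.2, 116 and 117 CPM for NOC3L. The ratio of Combo to DMSO for NOC3L was 1.497 (1.47 to 1.53), so it lay at the limit, and that of RAC1i to DMSO was 1.48 (1.45 to 1.51).

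In Combo over RAC1i the counting intervals separated many members, as they did most measured genes, though by small amounts. MYC and POLR1A were below 10 CPM in both libraries and so were not among the 38 measured members. The interval lay above 1 for 14 of these 38, below 1 for 20, and spanned 1 for 4. Over all 7443 measured genes it lay above 1 for 3200, below 1 for 2920, and spanned 1 for 1323. The highest ratios were 1.27 for NOC4L (1.22 to 1.33), 1.26 for BOP1 (1.20 to 1.32) and 1.20 for RRP1 (1.16 to 1.25). The lowest of the 38 was that of POLR1B, and MYC, with its fewer counts, was lower still at 0.586. Others were a little lower in Combo than in RAC1i, among them WDR43 at 0.925 (0.915 to 0.935), NOP16 at 0.888 (0.877 to 0.899) and NOP2 at 0.848 (0.830 to 0.867). The differences of the 38 measured members were all within 1.5-fold. Their direction depended on the scaling: with UMIs per kept cell, which moved the median of all genes by 0.17 on the log2 scale, the members' median went from -0.05 to 0.12 and WDR43 from -0.11 to 0.05.

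The higher level was seen across cells. In cells thinned to 5000 UMIs, the 38 members without SIRT7 and MYC gave a median of 22 UMIs per cell in DMSO against 34 under RAC1i and 33 under Combo. The middle part of the cells, between the quartiles, held 17 to 26 UMIs in DMSO, 29 to 41 in RAC1i and 27 to 39 in Combo, so for these 38 genes the ranges did not overlap between DMSO and the treated libraries. The ranges from the 5th to the 95th percentile did overlap, at 12 to 34, 21 to 51 and 20 to 49 UMIs. The variance over the mean was 2.19 in DMSO and 2.37 in each treated library. NPM1 and NCL supply much of the count, and without them the medians were 13, 21 and 20 UMIs. The quartile ranges of those 36 genes were 10 to 16 in DMSO, 17 to 26 in RAC1i and 16 to 24 in Combo, so that DMSO and Combo met at 16. Their variance over the mean was 1.41 in DMSO against 2.01 in RAC1i and 2.00 in Combo, further apart than with NPM1 and NCL.

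**Figure D4:**
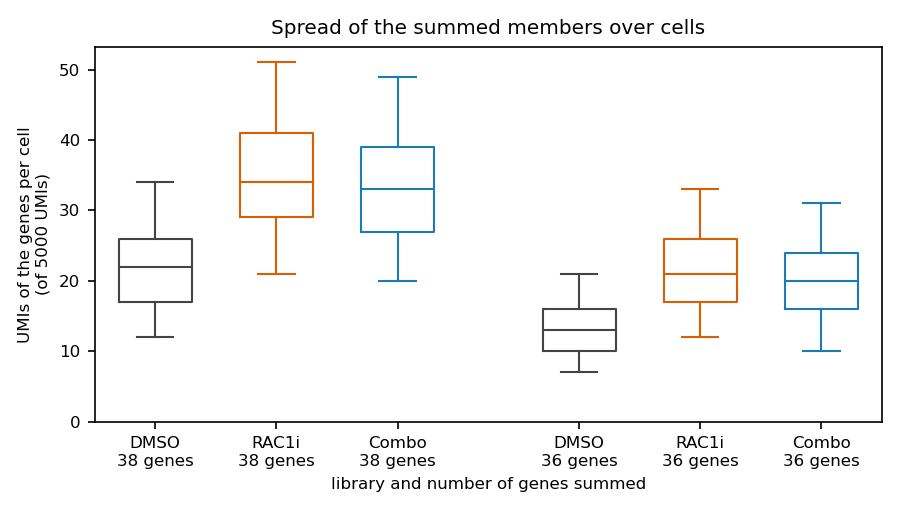
UMIs of the summed members per cell thinned to 5000 UMIs, for 38 members (without SIRT7 and MYC) and for 36 (also without NPM1 and NCL). Boxes show quartiles with the median, and whiskers the 5th and 95th percentiles. For the 38 genes the DMSO median was 22, below those of RAC1i (34) and Combo (33).

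Whether cells with SIRT7 or MYC carried more of the other members was examined within each library. In thinned cells the 38 others summed to 7040.0 CPM in RAC1i cells with a UMI of SIRT7 and 6894 CPM in cells without, a ratio of 1.02 (1.01 to 1.03). In Combo the ratio was 1.02 (1.01 to 1.03) and in DMSO 0.987 (0.974 to 1.00). With cells thinned further, to 2500 UMIs, the SIRT7 interval spanned 1 in every library, and the DMSO ratio was 1.01. For MYC, at 5000 UMIs, the ratio of cells with to cells without a UMI was 1.03 in DMSO (1.01 to 1.05), 0.951 in RAC1i (0.935 to 0.967) and 0.955 in Combo (0.933 to 0.978). Among RAC1i cells the 38 others stood at 6995 CPM in the 8747 cells with 0 UMIs of MYC, 6751 CPM in 408 cells with 1, 5821 CPM in 39 cells with 2 and 5300.0 CPM in 6 cells with 3 or more (4508 to 6191). The mean share of UMIs from S phase and G2M genes in these cells also fell, from 0.586% and 0.551% to 0.542% and 0.363%, and its part in the result was not tested. The depth of cells before thinning was not held alike either. From shallow to deep RAC1i cells MYC stood at 20.7, 9.19 and 6.21 CPM and SIRT7 at 171, 191 and 220 CPM. The 38 others stood at 6816, 7165 and 6910 CPM in these tertiles, and the part of depth in the splits was not tested. In DMSO the 38 others stood at 4419.7 CPM with 0 UMIs of MYC and 4523 CPM with 1. In 18 cells with 2 they stood at 4844 CPM, and in 2 cells with 3 or more at 6200.0 CPM (4754 to 7948). The sum varied more between cells than counting gives, with a variance over the mean of 2.19 in DMSO and 2.37 in RAC1i. Intervals from pooled UMIs are thus too narrow for sets of cells. No order is read from the small sets with 2 or more, and no difference from the ratio of 1.03 in DMSO. At 5000 UMIs many cells without a UMI of a gene can still express it, so the sets do not separate expressing cells from others.

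Proliferation differed between the libraries, and the members were compared within tertiles of proliferation. The measure was the share of a cell's UMIs from S phase and G2M genes, divided at 0.464% and 0.679%. The highest tertile took in 53.0% of the DMSO library but only 24.3% of RAC1i and 26.6% of Combo. Within the low, middle and high tertile, the median log2 ratio of RAC1i over DMSO was 0.47, 0.55 and 0.55 over the 40 members, and 17, 20 and 20 members were higher past 1.5-fold and 6, 7 and 5 lower. Over all measured genes in the same tertiles the medians were -0.22, -0.17 and -0.13, with 23.1%, 23.9% and 23.8% higher and 37.9%, 36.4% and 34.1% lower. For Combo over DMSO the medians were 0.53, 0.48 and 0.48. The members' median was thus of like size in each tertile. Cells of 1 tertile were still not fully alike in proliferation between libraries. The median share of S phase and G2M genes was 1.03%, 0.84% and 0.83% in the high tertile and 0.32%, 0.38% and 0.37% in the low. Within depth tertiles, from shallow to deep, the medians were 0.56, 0.44 and 0.52 for RAC1i over DMSO and 0.44, 0.31 and 0.51 for Combo over DMSO. Over all measured genes they were -0.10, -0.23 and -0.19 in RAC1i and -0.10, -0.27 and -0.16 in Combo. Among shallow cells 30.4% of all measured genes were higher past 1.5-fold in RAC1i and 29.8% in Combo, with 33.7% and 33.9% lower. Single members depended on depth more than the median did. Among shallow cells DKC1, NPM1 and WDR75 were not past 1.5-fold in RAC1i over DMSO, with log2 ratios of 0.33, 0.49 and 0.34, and NPM1 was not in Combo over DMSO, at 0.33. NOP16 went from 1.23 among shallow to 2.03 among deep cells in RAC1i over DMSO, while POLR1B went from 1.76 to 1.05 and NOP2 from 2.13 to 1.44. TCOF1 in Combo over DMSO was past 1.5-fold among shallow cells, with a log2 ratio of 1.4, and at 0.46 among deep cells.

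Inside each library the members were compared between cells of low and high proliferation. From the low to the high tertile the members' median log2 ratio in DMSO was 0.14, with 0.21 for RAC1i and 0.19 for Combo, against 0.07, 0.19 and 0.17 over all measured genes. In RAC1i the log2 ratio was 0.78 for RRP1, 0.73 for UBTF, 0.70 for RRP1B, 0.54 for UTP20 and 0.52 for DKC1, and in Combo it was 0.56 for RRP1B and 0.49 for UBTF. The largest ratio in DMSO was that of TCOF1, at 48.1 CPM in the low and 94.7 CPM in the high tertile, a log2 ratio of 0.98, against 0.30 in RAC1i and 0.36 in Combo. TCOF1 differed more between RAC1i and DMSO in cells of low proliferation, with a log2 ratio of 1.44 (1.37 to 1.5), than in those of high proliferation, at 0.76 (0.72 to 0.80). MYC was lower in the high tertile of the treated libraries, by log2 ratios of -0.82 in RAC1i and -0.77 in Combo, and level in DMSO at 0.02. SIRT7 went from 170.1 to 220 CPM in RAC1i and from 195 to 242 CPM in Combo, and stayed at 43.8 and 42.9 CPM in DMSO.

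Some members hold genes of snoRNAs, the guide RNAs of the snoRNPs, within their own. In GENCODE 44, 7 of the 40 members had at least 1 snoRNA gene inside them on the same strand: NCL, GNL3, NOP56, NOP58, DKC1, WDR43 and POLR1C. Of these 7, 5 were higher past 1.5-fold in RAC1i and 4 in Combo, and 0 were lower, with median log2 ratios of 1.20 and 1.13, beside 22.7% and 21.3% of all measured genes higher and 36.9% and 35.4% lower. NCL and GNL3 did not pass. This group was formed after the levels were known, and the snoRNAs themselves are not captured by 3′ sequencing of polyadenylated RNA.

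Other genes of the same pathway, which were not members, also had medians above that of all genes. Beside their counts stand the shares of all measured genes, 22.7% higher and 36.9% lower in RAC1i and 21.3% and 35.4% in Combo. Of 48 measured genes of small subunit processing, 24 were higher past 1.5-fold and 4 lower in each treated library, with median log2 ratios of 0.59 in RAC1i and 0.58 in Combo. SURF6 had the highest ratio of RAC1i to DMSO, from 29.8 CPM in DMSO to 115 CPM, and TBL3, of the UTP-B complex, had the lowest, from 49.5 CPM to 13.2 CPM. Of 51 measured genes of large subunit processing, 25 were higher and 8 lower in RAC1i, and 25 higher and 9 lower in Combo, with medians of 0.56 and 0.54. CCDC86 went from 9.48 CPM in DMSO to 64.2 CPM in RAC1i, 6.77-fold (6.45 to 7.10). It was below 10 CPM in DMSO and so counted as measured only through the treated library. Of 10 other snoRNP genes, 4 were higher and 0 lower in each treated library, with medians of 0.31 and 0.43, and the assembly factor NUFIP1 went from 16.3 CPM to 55.8 CPM in RAC1i.

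Of 12 other RNA polymerase I genes that were measured, 5 were higher (41.7%) and 2 lower (16.7%) in each treated library. Their medians were 0.43 in RAC1i and 0.32 in Combo. TAF1D, of the promoter selectivity factor, went from 53.0 CPM in DMSO to 353 and 346 CPM in the treated libraries, 6.66-fold (6.53 to 6.80) and 6.52-fold. POLR1E, a polymerase subunit that SIRT7 is known to deacetylate, was lower, at 24.8 CPM in DMSO and 14.8 CPM in RAC1i. RNA polymerase III genes, which serve the 5S RNA and transfer RNAs, had medians of -0.21 and -0.06 over 19 measured genes, with 4 higher and 6 lower in RAC1i and 5 higher and 6 lower in Combo. In RAC1i this is 21.1% higher and 31.6% lower, near the 22.7% and 36.9% of all measured genes. Genes of the RNA exosome, which trims precursor RNA, had medians of 0.17 and 0.29 over 14 genes. In RAC1i 2 were higher and 2 lower, or 14.3% each way, which is below the share of all measured genes in both directions. In Combo 3 were higher (21.4%) and 2 lower (14.3%), beside 21.3% and 35.4% of all measured genes.

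Genes linked to MYC outside the nucleolus were spread in both directions. Of 22 measured MYC targets of metabolism and growth, 5 were higher and 8 lower in RAC1i and 5 higher and 6 lower in Combo, with medians of -0.10 and -0.16. In RAC1i these counts are 22.7% and 36.4% of the list, near the 22.7% and 36.9% of all measured genes, and the medians were near those of all genes, -0.20 and -0.18. The summed level of the list was 1.19-fold of DMSO in RAC1i and 1.18-fold in Combo. EIF4E, the cap-binding factor, went from 79.0 CPM in DMSO to 211 CPM in RAC1i, and SHMT1, of folate metabolism, from 42.3 CPM to 11.1 CPM. In the MAX network, the partners and rivals of MYC, 1 of 8 measured genes was higher and 3 lower in each treated library, with medians of -0.50 and -0.45. The 3 lower are 37.5% of the list, near the share of all measured genes. MXD4, a repressor of E-box genes, went from 47.3 CPM in DMSO to 8.44 CPM in RAC1i, and MXD1, another, from 7.43 to 18.3 CPM. MXD1, the gene counted as higher, was below 10 CPM in DMSO, and MXD4 was below 10 CPM in RAC1i. In RAC1i over DMSO each thus counted as measured only through the library where it was high. Of the 6 sirtuins other than SIRT7, 2 were measured in RAC1i over DMSO. SIRT1, a nuclear deacetylase, went from 17.5 CPM in DMSO to 34.3 and 28.7 CPM in the treated libraries, and SIRT2 from 27.5 CPM to 16.6 and 22.8 CPM. In Combo over RAC1i, 0 genes of any of these lists passed 1.5-fold. None of these lists was tested against other genes.

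**Figure D5:**
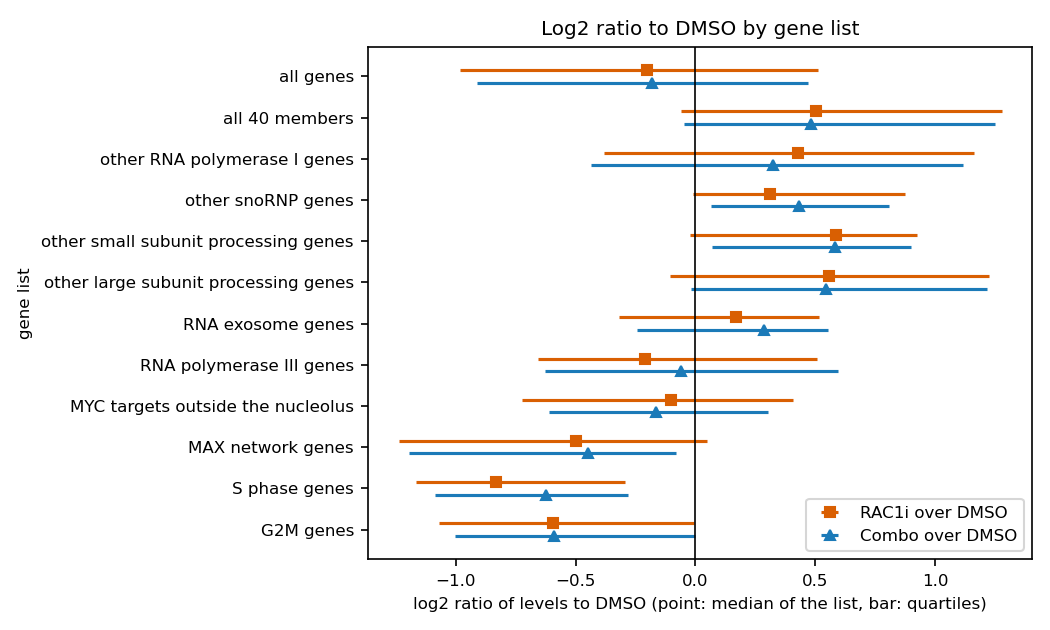
Median log2 ratio (points) with quartiles (bars) of each gene list in RAC1i (squares) and Combo (triangles) over DMSO. All genes lay at -0.20 and -0.18, the 40 members at 0.50 and 0.48, other small subunit genes at 0.59 and 0.58, and S phase genes at -0.83 and -0.62.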

How the data were processed

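Whole-number UMI counts per gene and cell barcode were deposited by the authors, who made them with Cell Ranger 4.0.0 (from the submitters' processing notes) on GRCh38, without normalization. The library of the EZH2 inhibitor alone was not analysed here. The study's limits on cells were applied, namely more than 1000 genes, a mitochondrial share of UMIs up to 20%, and log10 genes over log10 UMIs (complexity) above 0.8. No doublet caller was run, and filters can change the levels, as given in the closing section.

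For each library the UMIs of its kept cells were added up (199063947 in DMSO, 234969742 in RAC1i and 212792113 in Combo) and given as CPM, with exact Poisson intervals, exact conditional intervals for ratios and Clopper-Pearson intervals for shares, all at 95%. Cells of 1 culture are not independent, so these cover counting error only. A gene counted as measured if either library compared gave it 10 CPM or more, and a ratio past 1.5-fold in either direction was counted as higher or lower. For shares and splits, cells were thinned at random to 5000 UMIs. Medians are over log2 ratios of CPM, with a count of 0 set to 3. The interval script was tested on simulated data for RAC1i over DMSO over 7879 genes, where the intervals held the true ratio for 95.1% of genes. Those counts were drawn from the Poisson model that the intervals assume. The result therefore checks the code and not how well the intervals suit these cells.

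Gene positions came from GENCODE 44 and promoters from RefSeq. All 40 members are named, and from each other list at most the genes with the highest and the lowest ratio. The members, the lists and the tests were chosen with earlier results of these data known. Scaling by edgeR 4.0.16 (TMM) and DESeq2 1.42.0 (size factors), other cell filters, weightings, thinning depths and minimum levels were tried as alternatives. Python 3.11.15 with numpy 2.4.6, scipy 1.17.1 and pandas 2.3.3, and R 4.3.3, were used.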

Additional observations from a re-analysis of the deposited data

How the results depend on the processing

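No paired analysis was possible because each condition was 1 library. Of 12 alternative scalings, filters and weightings, all kept the direction of the 25 members past 1.5-fold in RAC1i over DMSO and of the 22 in Combo over DMSO. The members whose sign changed under some alternative were MYC, NCL, FBL, UTP15, UTP20 and NOC4L in RAC1i over DMSO, and FBL, UTP15 and UTP20 in Combo over DMSO. In Combo over RAC1i the sign changed for POLR1A, POLR1C, FBL, NOP56, DKC1, UTP15, WDR43, WDR75 and BYSL with UMIs per kept cell alone, which moves every gene alike and so bears on none of them in particular, and under other alternatives for RRP12, RRP1B, NPM1, GAR1, NAT10, NOC3L and WDR12. Scaling moved the median of all genes by 0.11 and 0.12 (log2, RAC1i and Combo over DMSO) with DESeq2 size factors, and by -0.20 (RAC1i over DMSO) and 0.17 (Combo over RAC1i) with UMIs per kept cell. A scaling shifts every gene alike and so cannot move the members against all genes, 0.70 above them in RAC1i over DMSO and 0.66 in Combo over DMSO. Over the other alternatives this distance was 0.65 to 0.78 and 0.55 to 0.66, lowest in Combo with cells thinned to 2500 UMIs.

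The median log2 ratio of the members in RAC1i over DMSO was 0.58 with TMM, 0.62 with DESeq2, 0.44 with totals without mitochondrial genes, 0.30 with UMIs per kept cell and 0.78 with a minimum of 50 CPM. In Combo over DMSO it was 0.57 with TMM, 0.60 with DESeq2, 0.41 without mitochondrial genes, 0.43 as a mean over cells, 0.42 thinned to 5000 UMIs, 0.38 thinned to 2500 UMIs, 0.42 with depth tertiles weighted equally and 0.58 with a minimum of 50 CPM. In Combo over RAC1i it was 0.12 with UMIs per kept cell. The number of members lower was 2 with a minimum of 50 CPM in both RAC1i and Combo over DMSO, and 3 and 2 at 2-fold. The share of all genes was not counted at these limits, so these counts have no background beside them. With the 50 CPM minimum the median of all genes also moved, to -0.0046 in RAC1i and 0.011 in Combo over DMSO. In Combo over RAC1i 1 member, MYC, was lower with no minimum CPM, and 1 with the mean over cells and thinned to 5000 and to 2500 UMIs. Thinned to 2500 UMIs, 9.53% of DMSO, 36.5% of RAC1i and 38.6% of Combo cells had a UMI of SIRT7, and 2.71%, 3.12% and 2.07% one of MYC. At that depth the log2 ratio of the 38 others in cells with over without SIRT7 was 0.011 (DMSO), 0.011 (RAC1i) and 0.015 (Combo), and that for MYC in Combo was -0.018. Each of these intervals spanned 0, and the DMSO value for SIRT7 had the opposite sign at 5000 UMIs. The 50 CPM and 2-fold limits count fewer genes by construction, and the cause of the other shifts was not tested. MYC moved by up to 0.82 and NOC4L by up to 0.39 in RAC1i over DMSO. The depth gives counting error only, and the spread between cultures was not measured.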
